A study of Mus musculus with 2 samples.

Results

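The genes described here encode the core machinery that turns a primary microRNA (miRNA) transcript into a loaded silencing complex, together with the LIN28 proteins that hold back the let-7 family. They were chosen by name: Drosha, Dgcr8, Xpo5, Dicer1, Tarbp2, Ago2 (called Eif2c2 on the array), Lin28a and Lin28b. These 8 genes had 11 of the 55681 probes on the array, and 7 of them were among the 20493 genes measured, which means well above background on at least 1 array.

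The cells were 4T1, a mammary carcinoma line from the BALB/c mouse, cultured without treatment. They were sorted with ALDEFLUOR, a fluorescent substrate of aldehyde dehydrogenase (ALDH), into cells of high activity (ALDH-positive, labelled cancer stem cell) and of low activity (ALDH-negative, labelled anti cancer stem cell). Total RNA of each population was hybridised to 1 one-colour Agilent array, which measures long transcripts and not mature miRNAs. Since each population had a single array, no replicate spread and no test could be had. Each value therefore compares these 2 arrays, and sorted cells of another culture may differ. A lower signal from fewer expressing cells and one from less RNA per cell could not be told apart.

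A miRNA begins as a hairpin in a longer primary transcript. DROSHA, an RNase III, cuts the hairpin out in the nucleus while its partner DGCR8 binds the stem. Exportin-5, from Xpo5, carries the precursor to the cytoplasm, where DICER with its partner TRBP, from Tarbp2, removes the loop. Argonaute 2 then holds a single strand, whose seed, bases 2 to 8, pairs with target mRNAs. LIN28A and LIN28B bind let-7 precursors in embryonic and some tumour cells and block their maturation.

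The substrates are shown first because the cuts and the LIN28 contact are visible in their letters. Sequences and positions are from RefSeq on GRCm38.p6. The hairpin of miR-182, the miRNA followed in the study, lay at chr6:30165918-30165992 on the minus strand. Both mature arms are in capitals, and DICER removes the 18 bases between them.
Mir182 hairpin: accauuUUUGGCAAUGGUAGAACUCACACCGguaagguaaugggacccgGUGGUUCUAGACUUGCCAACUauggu
Next come its mature form and 2 let-7 forms, with the seed in capitals.
mmu-miR-182-5p: uUUGGCAAugguagaacucacaccg
mmu-let-7a-5p: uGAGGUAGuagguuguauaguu
mmu-let-7g-5p: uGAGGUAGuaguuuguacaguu
All 8 let-7 5p sequences in the table shared the let-7a seed. The let-7g hairpin, at chr9:106178840-106178927 on the plus strand, is shown with GGAG in capitals, the letters that the zinc knuckles of LIN28 are known to bind.
Mirlet7g hairpin: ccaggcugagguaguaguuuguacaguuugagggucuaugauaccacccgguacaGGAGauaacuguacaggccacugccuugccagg
Searched on the hairpin strand only, GGAG stood in 9 of 11 let-7 hairpins and in 447 of all 1005 hairpins, or 44.5%.

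A further hairpin lies inside a machinery gene. Mir1306, at chr16:18284239-18284317 on the minus strand, sits within Dgcr8 (chr16:18253948-18289251), and DROSHA with DGCR8 is known to cut hairpins in the Dgcr8 transcript itself. Its mature arms are in capitals.
Mir1306 hairpin: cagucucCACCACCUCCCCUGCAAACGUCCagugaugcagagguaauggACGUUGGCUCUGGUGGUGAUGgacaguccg

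None of the 7 measured genes passed the selection of the study's methods. A gene was called higher at a ratio of ALDH-positive over ALDH-negative of 1.5 or more with a Z-score of 2 or more, and lower at a ratio of 0.75 or less with a Z-score of -2 or less. Of all measured genes, 1.60% were called higher and 3.26% lower. Hence 0 calls among 7 genes was close to the background. In 5 genes the log2 ratio was above 0 and in 2 it was below, with a median of 0.07 against 0.02 over all measured genes. A log2 ratio above 0 was found in 53.9% of all measured genes. In 6 of the 7 the log2 ratio was smaller than its own scanner error, the error that the scanner software gave to both signals combined, as it was in 62.5% of all measured genes. That error was 0.20 or 0.21 for each of the 7, and it is not a spread between replicate arrays. Signals below are quantile-normalized intensities. Each pair of signals is given in the order ALDH-negative, then ALDH-positive. A level compares the arrays for 1 probe and not 1 gene with another.

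**Figure D1:**
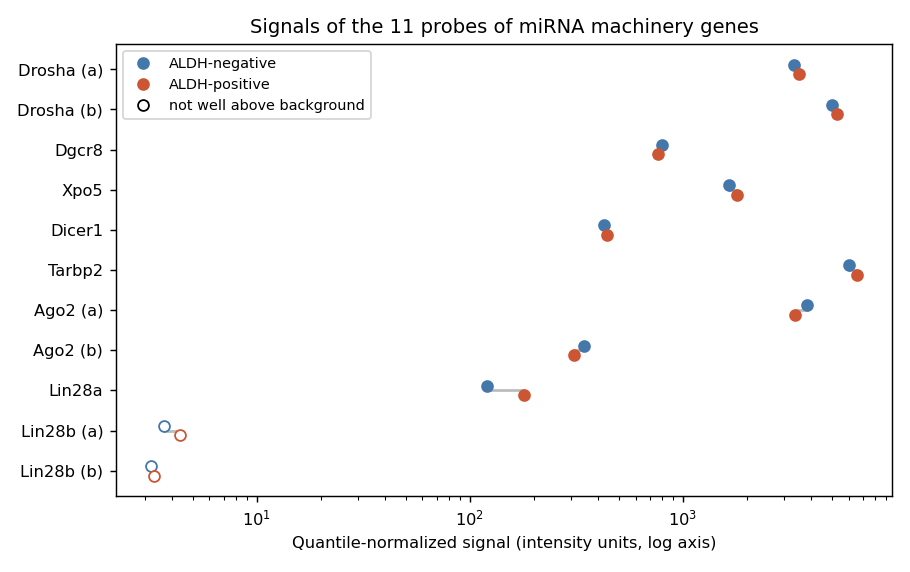
Quantile-normalized signal (intensity units, log axis) of each of the 11 probes on the ALDH-negative (blue) and ALDH-positive (red) array, with (a) and (b) marking separate probes of a gene. The 2 points of a probe lie close together except for Lin28a, at 120.1 and 179.7, and both Lin28b probes (open circles) were not well above background. Positions of different probes along the axis are not comparable.

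The Microprocessor, DROSHA with DGCR8, had near equal signals on both arrays. The brighter Drosha probe, at chr15:12864767-12864826 on the plus strand (NCBI37, the build of the array), read 5014 and 5266, a log2 ratio of 0.07 (scanner error 0.20). The other, 197 bases downstream at chr15:12864964-12865023, read 3342 and 3522, a log2 ratio of 0.08. The log2 ratios of this pair differed by 0.0048. For comparison, the median difference was 0.18 over 3514 transcripts with 2 measured probes. The brighter probe is printed to show the stretch of Drosha RNA that was measured.
Drosha probe: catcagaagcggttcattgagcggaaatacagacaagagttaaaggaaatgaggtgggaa
The single Dgcr8 probe, at chr16:18254226-18254285 on the minus strand, read 798 and 762. The log2 ratio of Dgcr8 was -0.07 (scanner error 0.20).

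For Xpo5, the exporter of precursors, the pair of signals was 1653 and 1792. The log2 ratio was 0.12 (scanner error 0.20, Z-score 0.56). The probe lay at chr17:46378755-46378814 on the plus strand.
Xpo5 probe: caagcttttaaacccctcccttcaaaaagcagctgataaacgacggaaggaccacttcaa
Of the measured genes, 67.5% had a lower ratio than Xpo5.

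Dicer1 and Tarbp2, which encode the cytoplasmic cutting enzyme and its double-stranded RNA-binding partner, also differed by less than the scanner error. Dicer1, at chr12:105926064-105926123 on the minus strand, read 428 and 441, a log2 ratio of 0.04. Tarbp2, at chr15:102353974-102354033 on the plus strand, read 6036 and 6580, a log2 ratio of 0.12. Both errors were 0.20. When arrays were aligned on their 75th percentile, the log2 ratio of Tarbp2 was 0.21, past its error. That alignment also took the median of all measured genes to 0.05. Relative to that median, Tarbp2 was at 0.16, within its error.

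Ago2, the slicer Argonaute, was lower on the ALDH-positive array with both of its probes, by about the size of the error. The brighter probe, at chr15:72936863-72936922 on the minus strand, read 3845 and 3357, a log2 ratio of -0.20 (scanner error 0.20, Z-score -1.09). The second, at chr15:72935705-72935764, read 345 and 307, a log2 ratio of -0.17. Another 2 probes, downstream of these on the same strand, carry clone names that RefSeq gives as synonyms of Ago2. They were looked at after the values above were known, and whether they measure the Ago2 transcript was not tested. The probe of 2310051F07Rik (chr15:72928888-72928947) read 2911 and 2769, a log2 ratio of -0.07. The probe of 1110029L17Rik (chr15:72926367-72926426) read 2280 and 2410, a log2 ratio of 0.08. The 4 probes therefore did not share a direction, though the 2 named for Ago2 did, and none differed from 0 by more than its error.

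**Figure D2:**
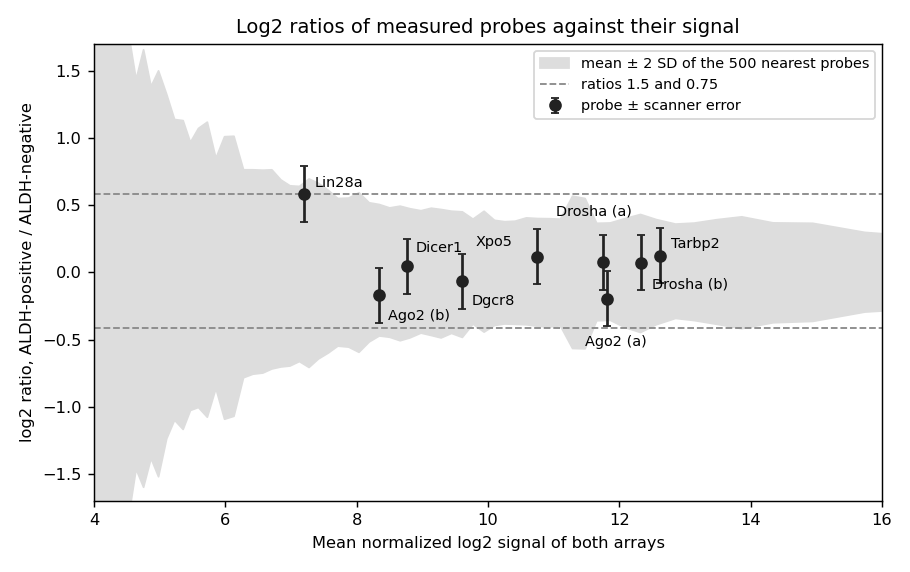
Log2 ratio of ALDH-positive over ALDH-negative (vertical axis) against the mean normalized log2 signal (horizontal axis) for the 9 measured probes, with bars for the scanner error. The grey band is the mean ± 2 SD of the 500 probes nearest in signal, and dashed lines mark ratios of 1.5 and 0.75. Lin28a, at 0.58, lies just inside the band and just under the upper line, and the other probes lie near 0.

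Lin28a gave the one log2 ratio among these genes larger than its error, although it was not called. Its probe, at chr4:133559245-133559304 on the minus strand, read 120.1 and 179.7. The ratio was 1.496 and the log2 ratio 0.58 (scanner error 0.21), which is 2.78 times that error. Its Z-score was 1.84. At that signal a call needed a log2 ratio of 0.63, because the log2 ratios of probes of like signal had an SD of 0.32. In all, 1183 of the measured genes, or 5.77%, had a larger log2 ratio than Lin28a. The spot had a single copy on each array, of 47 and 41 pixels. The median log2 ratio of probes within 20 rows and columns of it was -0.01. With 1 spot per array, the reading had no second probe to set it against. A probe of AF285579 on the opposite strand (chr4:133560238-133560297), designed on Tex17, a RefSeq synonym of Lin28a, was not well above background on either array.

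Lin28b was not well above background on either array with either probe. At chr10:45140412-45140471 on the minus strand, the mean spot signals were 70.2 and 70.0, over local backgrounds of 55 and 56. At chr10:45096468-45096527, they were 59.1 and 64.7 over 57.5 and 59. No fold is given for this paralog, and a low level of the transcript cannot be told from none at this sensitivity. The first probe is printed as the stretch in which Lin28b RNA was sought.
Lin28b probe: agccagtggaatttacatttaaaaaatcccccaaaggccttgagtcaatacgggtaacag

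Before normalization every measured probe of these genes read brighter on the ALDH-positive array, by a log2 ratio of 0.31 for the dimmer Ago2 probe to 1.01 for Lin28a. Over all measured probes the median was 0.49 before and 0.02 after. The directions above are thus relative to the whole array, and an equal shift of all transcripts could not be seen.

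**Figure D3:**
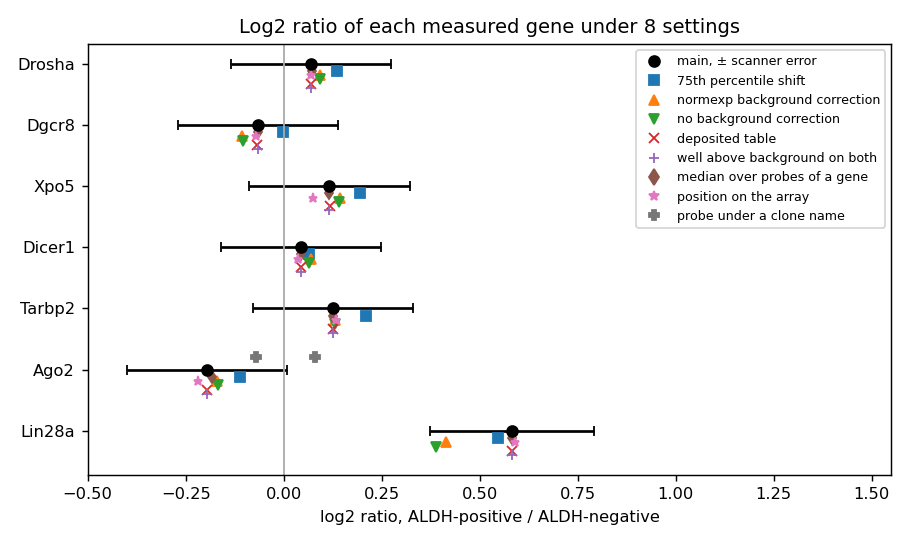
Log2 ratio of ALDH-positive over ALDH-negative (horizontal axis) for the 7 measured genes, with the reported value as a black circle with its scanner error and the values under 7 other ways of processing as coloured symbols. Each gene kept its side of 0 under these, and Lin28a moved between 0.39 and 0.59. The 2 grey crosses in the Ago2 row are probes under clone names given as its synonyms, of which 1 lies at 0.08.

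The genes around the core machinery were read in 7 further lists of 85 genes, of which 83 were measured. Of these, 42, or 50.6%, had a log2 ratio above 0, against 53.9% of all measured genes. Their median was 0.00 and 0 were called, against the same 1.60% higher and 3.26% lower over all genes.

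All 12 cofactors of the Microprocessor were measured, 5 above 0, with a median of -0.03, which was 0.04 when arrays were aligned on their 75th percentile. By the brightest probe of each gene, the largest differences were in Srsf3, a splicing factor that recognises primary miRNAs, at -0.29, Tardbp at -0.22, Srrt, which links capped transcripts to DROSHA, at -0.19, and Khsrp, a binder of let-7 loops, at -0.15. Other probes of these genes did not always give the same value, with Tardbp also at -0.28 and 0.04, and larger differences stood at other probes of Ncbp2, -0.64 against -0.02 at its brightest, and of Ddx5, -0.43 against 0.05. The nuclear export partners were Xpo1 at 0.11, Ran at 0.00 and Rcc1 at -0.02. Ran is the GTPase that exportin-5 needs to hold its cargo.

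Of the 9 partners of DICER and loading factors, 4 lay above 0 and the median was -0.06. Hspa8, a chaperone of Argonaute loading, had a log2 ratio of -0.23 and a Z-score of -2.09, but its ratio of 0.851 missed the limit of 0.75, and its other probes were at -0.37 and -0.05. Tsn, a subunit of the complex that removes passenger strands, was at -0.22. Adar, an RNA-editing enzyme, was at 0.15 and Fkbp4, a cochaperone, at -0.11.

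Among 11 other Argonautes and silencing effectors, 7 lay above 0 and the median was 0.01, which was -0.01 with normexp background correction. Ago3 read 34.6 and 22.3, a log2 ratio of -0.63 (scanner error 0.29, Z-score -0.85). Ago4 was at 0.30 with an error of 0.27, and Ago1 at -0.01. Tnrc6b, a GW182 scaffold that links Argonaute to deadenylases, was at 0.39 with an error of 0.21, while its relative Tnrc6c was at -0.10. The log2 ratios of Ago3 and Ago4 were thus larger in size than those of Ago2 and of opposite sign to each other, with larger errors and no call.

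Deadenylation and decapping genes, which carry out the decay of targets, had 12 of 16 above 0 and a median of 0.09. Over all measured genes 53.9% were above 0. Cnot7, a deadenylase, was at -0.32 and Pan2, which trims long tails, at 0.29. Cnot3 was at 0.26 and the helicase Ddx6 at -0.24.

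The genes of let-7 precursor tailing and miRNA decay had 5 of 10 above 0 and a median of 0.02. Tut4, which adds uridines to let-7 precursors bound by LIN28A, was at -0.27 with its brighter probe and at 0.08 with the other. Dis3l2, the exonuclease that degrades uridylated precursors, was at 0.18. Trim71, itself a known let-7 target, was at -0.61 with an error of 0.38, and at 0.06 with its other probe. Msi1, described as a partner of LIN28, was at -0.21.

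Of 24 described let-7 targets outside the core genes, 22 were measured, and Igf2bp3 and Mycn were not. There were 7 above 0 and 15 below, with a median of -0.04, which was 0.02 under the same alignment. Hmga2, a target with many let-7 sites, read 5578 and 5232, a log2 ratio of -0.09. The ALDH-positive array alone had Il6 well above background, at 20.2. Against the level set for the dim array, described below, Il6 was 1.95-fold higher on the ALDH-positive array. Its scanner error was 0.61 in log2 and its Z-score 1.18, with no call. The other Hmga2 probe was at -0.30. Hmga1 was at -0.05 with its brightest probe and at -0.87 and -0.42 with its others. Tgfbr1 was at -0.04 with its brightest probe and at 0.51 with its other measured probe. Fas was at 0.40. Insr was at -0.25 with its brightest probe and at 0.16 and 0.11 with the others.

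**Figure D4:**
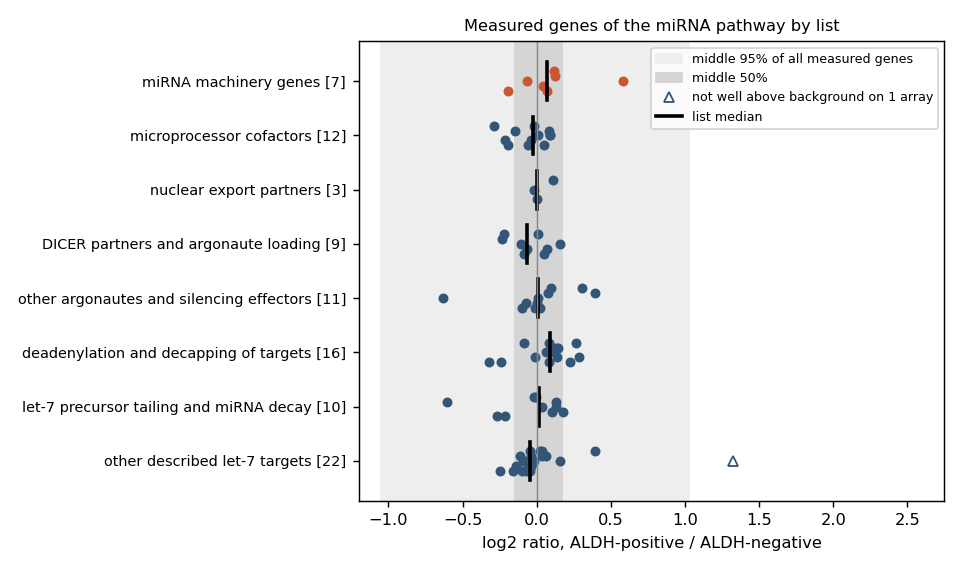
Log2 ratio of ALDH-positive over ALDH-negative (horizontal axis) for each measured gene by list, with the number measured in brackets, the list median as a black bar and the middle 50% and 95% of all measured genes in grey. Medians of the lists lie between -0.06 and 0.09, and the triangle is Il6, not well above background on 1 array.

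Transcripts that carry miRNA hairpins, the substrates of DROSHA, had 13 probes of 4 genes, and none was called. Mir17hg, the host of a cluster of growth-promoting miRNAs, read 441 and 502, a log2 ratio of 0.19 (scanner error 0.20). H19, the host of miR-675, was well above background with 6 of its 7 probes, whose log2 ratios ran from -0.19 to 0.58. Its brightest probe read 711 and 793, a log2 ratio of 0.16, and that at 0.58 had a Z-score of 2.09 but a ratio of 1.49. The H19 probes hence did not give 1 common value. The 3 Meg3 probes were not well above background. Of the 2 Mirg probes, 1 was well above background on the ALDH-positive array alone and the other on the ALDH-negative array alone. Folds were taken against the level set for the dim array, described below. The first probe was 1.36-fold higher on the ALDH-positive array, and the second 1.44-fold higher on the ALDH-negative array. Their scanner errors were 0.94 and 0.51 (log2) and their Z-scores 1.33 and -0.41.

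The 2 arrays were on 1 slide. Probes well above background made up 48.5% and 49.4% of all, and no spot was saturated. Of the carcinoma (epithelial) markers, all 7 were measured and above 0, their summed signal was 324989 and 368187, and Krt14, a basal keratin, was called higher at 0.98. Of the leukocyte markers, 4 of 8 were measured, Ptprc, Adgre1 and Ly6g were among those not well above background, and the summed signal was 9951 and 6261, most of it from 1 probe of Itgam, which read 7301 and 3795. Of the 4 measured, 3 lay below 0. Itgam was called lower at -0.94 with other probes at 0.38 and -0.67. Cd3e was at -0.47 (Z-score -1.93) and Csf1r at -0.34, with another probe at -0.30, both without a call. Cd68 was at 0.44 with a Z-score of 2.34 and no call, and at 0.07 with its other probe. Of the endothelial markers, 2 of 5 were measured, Cdh5, Tek and Vwf were not well above background, and the summed signal was 7319 and 5426, nearly all of it Kdr, which was called lower at -0.43, while Pecam1 was at 0.21 with an error of 0.30. Of the 6 fibroblast markers 3 were measured and 0 called, with a summed signal of 203 and 189. All 3 lay below 0, with Col1a1 at -0.70 (scanner error 0.33, Z-score -0.82). Whether these differences had a part in any value above was not tested.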

How the data were processed

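Cy3-labelled RNA (50 ng input) was hybridised by the authors, and spot intensities came from Feature Extraction by Agilent, 9.5.1.1 per the labels but 10.7.1.1 per the file headers. The labels name ReliaPrep and the paper RNeasy for the RNA. The deposited scanner files hold, in intensity units, the mean, background and processed signal, with its error, of 62976 spots per array, and the authors' deposited table holds a quantile-normalized intensity per probe. The processed signals of 59305 spots without controls, outliers left out, were set to at least 1, averaged per probe as log2 values and quantile-normalized over both arrays. A gene took its brightest probe. The Z-score, which the sources used here do not define, set each log2 ratio against the mean and SD of its neighbours in signal, 250 above and 250 below. Where a gene or probe was well above background on 1 array alone, its fold was taken against a level for the dim array. That level was the higher of its own signal there and the lowest signal called well above background there. Such a fold does not allow for scanner error. Median spot spread of probes printed 10 times was 0.059 and 0.047 (SD, log2). The number of arrays, 1 per group, limits the precision.

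RefSeq names matched 27235 probes. Probe positions are on NCBI37, and exon or UTR position was not analysed here. The ALDH status follows the paper's use of the labels. The genes and lists were chosen with earlier results of these data known. Named from each pathway list were called genes, then up to 4 by the size of the log2 ratio. Marker lists did not wholly follow this rule, and their uncalled genes were named after their values were seen. A gene that this rule would name among the let-7 targets is not reported here, though the counts include it. Further genes (Ago1, Hmga1, Hmga2, Tgfbr1, Ncbp2, Ddx5, Cd68, Pecam1) and the probes under clone names of Ago2 were added after their values were seen. There were 11 other ways of processing, and 1 added after seeing the data. Python 3.11.15, R 4.3.3 and limma 3.58.1 were used, and the scripts were tested on simulated data.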

Additional observations from a re-analysis of the deposited data

How the results depend on the processing

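No paired analysis was possible because each population had 1 array. Under 11 other ways of processing (normalization, background correction, Z-score window, limits, probe choice, filter, deposited table, position on the array) 0 of the 7 measured genes were called. Those that changed only the Z-score window or the limits could not have given a call here. They leave the ratios as reported, and no ratio of these genes reached 1.5 or 0.75. The 7 of the 11 that can move a log2 ratio left each gene on its side of 0, with Lin28a between 0.39 without background correction and 0.59. Not all of the 7 were strong changes. The filter and the deposited table gave nearly the reported values, and probe choice can move only genes with more than 1 measured probe. Dgcr8 came closest to 0, at -0.0027 when arrays were aligned on their 75th percentile. There Drosha was at 0.14, Xpo5 at 0.19, Tarbp2 at 0.21, Ago2 at -0.11 and the median of these genes at 0.14. That alignment also took the median of the Microprocessor cofactors to 0.04 and of the other let-7 targets to 0.02, above 0, and the median of all genes to 0.05. Read from the clone-name probe 1110029L17Rik, chosen after seeing the data, the log2 ratio for Ago2 was 0.080. Whether that probe measures the Ago2 transcript was not tested. With the Z-score taken over all probes, 1 other pathway gene, Il6, was called higher, and 1.94% of all genes were called lower in place of 3.26%. Genes called higher fell from 1.60% to 0.956% with normexp, 0.878% without background correction and 1.04% with probes well above background on both arrays. With 1 array per population, small differences such as those of Drosha, Dicer1 and Dgcr8 were below what the scanner error allows to be seen.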
